A study of Homo sapiens with 7 samples.

Results

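The DNA replication and mitosis genes are 40 named human genes of the cell cycle, 22 of replication and S-phase entry and 18 of mitosis, out of 19970 protein-coding genes on chromosomes 1 to 22 and X in the RefSeq annotation of GRCh38.p14. They were chosen by name, with earlier results of these data known, so their shares beside all genes are description only. Their regions are the peaks of 6 deposited lists that reach within 1 kb of either end of the gene, and the distal peaks for which it has the nearest protein-coding gene end. The lists come from chromatin immunoprecipitation sequencing (ChIP-seq) of OCI-Ly7 cells in routine culture, an established line of diffuse large B-cell lymphoma. Antibodies were against the POU factors OCT1 and OCT2, their coactivator OCA-B, and the general coactivators EP300, CREBBP and MED1 (1 library each), with 1 common input library. All libraries share this 1 line and its culture, and the labels name no arrest or sorting by cell cycle phase, so the regions are an average over the phases of the culture. With 1 library per antibody no difference below has a replicate check, and no test was made.

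The MCM2 to MCM7 proteins form the ring-shaped helicase that is loaded at replication origins before S phase and unwinds the DNA when S phase starts, while cyclin B with CDK1, the Aurora and Polo-like kinases and the spindle checkpoint govern the passage through mitosis. Many replication genes are known targets of E2F factors. Many mitosis genes carry CCAAT boxes and a CHR (cell cycle genes homology region) element in the promoter. The DREAM and B-MYB complexes read the CHR element. OCT1 (POU2F1) is a widely expressed POU factor and OCT2 (POU2F2) its B cell paralog. Both bind the octamer, and OCA-B (POU2AF1) is the lymphoid coactivator they recruit. MED1 is a Mediator subunit, and CREBBP and EP300 are paralogous acetyltransferases.

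Promoter sequences from the RefSeq table of GRCh38.p14 were matched to 34 of the 40 genes (18 replication and 16 mitosis genes). The first set gives the 250 bases before the start for the genes with the highest OCT1 fold in each class among those whose stretch is not covered by another gene, and is shown because the OCT1 summit lies in or next to these bases. All are written 5′ to 3′ on the strand of the gene. Capitals mark CCAAT, CHR (TTTGAA or TTCGAA) and E2F (TTTCCCGC, TTTGGCGC, TTTCGCGC or TTTGCCGC) letters on either strand, and neighbouring matches run together. The stretches are MCM6 chr2:135876444-135876693 (minus strand), RRM1 chr11:4094435-4094684 (plus strand), BUB1 chr2:110678064-110678313 (minus strand), CENPE chr4:103198344-103198593 (minus strand).
MCM6: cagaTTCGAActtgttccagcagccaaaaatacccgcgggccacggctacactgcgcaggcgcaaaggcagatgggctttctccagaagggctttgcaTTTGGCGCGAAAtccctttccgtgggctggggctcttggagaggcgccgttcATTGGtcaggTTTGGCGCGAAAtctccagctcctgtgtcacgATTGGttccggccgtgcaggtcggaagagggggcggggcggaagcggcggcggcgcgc
RRM1: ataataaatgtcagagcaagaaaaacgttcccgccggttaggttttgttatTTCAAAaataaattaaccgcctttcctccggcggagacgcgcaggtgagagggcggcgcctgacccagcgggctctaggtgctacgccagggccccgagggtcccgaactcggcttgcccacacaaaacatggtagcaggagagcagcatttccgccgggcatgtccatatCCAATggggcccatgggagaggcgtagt
BUB1: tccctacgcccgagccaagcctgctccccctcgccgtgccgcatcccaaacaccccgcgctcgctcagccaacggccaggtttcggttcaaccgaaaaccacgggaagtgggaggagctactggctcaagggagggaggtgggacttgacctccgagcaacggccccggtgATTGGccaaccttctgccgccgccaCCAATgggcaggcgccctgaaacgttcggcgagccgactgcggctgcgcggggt
CENPE: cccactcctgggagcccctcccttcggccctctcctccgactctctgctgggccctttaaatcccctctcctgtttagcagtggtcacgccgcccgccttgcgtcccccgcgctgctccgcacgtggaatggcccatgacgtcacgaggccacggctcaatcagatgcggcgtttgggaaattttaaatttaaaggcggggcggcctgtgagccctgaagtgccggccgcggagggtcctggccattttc
The OCT1 summit lay 90 bp upstream of the start of MCM6, 134 bp upstream in BUB1 and 192 bp upstream in CENPE, all inside the printed bases, and 82 bp downstream of the start of RRM1. None of the 4 stretches holds the octamer ATGCAAAT, and that of CENPE holds none of the letters searched.

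The second set gives the last 100 bases before the start for 3 replication genes with CCAAT and E2F letters, the pair of features that recurred in that class. They lie at PCNA chr20:5126623-5126722 (minus strand), CDC25A chr3:48188418-48188517 (minus strand), E2F1 chr20:33686386-33686485 (minus strand).
PCNA: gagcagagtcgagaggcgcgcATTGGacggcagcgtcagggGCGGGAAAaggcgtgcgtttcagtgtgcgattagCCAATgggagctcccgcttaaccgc
CDC25A: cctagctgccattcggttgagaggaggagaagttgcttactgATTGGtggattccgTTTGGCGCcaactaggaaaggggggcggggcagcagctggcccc
E2F1: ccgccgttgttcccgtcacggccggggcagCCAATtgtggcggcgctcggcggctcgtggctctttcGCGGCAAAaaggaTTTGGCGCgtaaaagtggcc
The third set gives the same stretch for 3 mitosis genes with CCAAT and CHR letters, at CCNB2 chr15:59105046-59105145 (plus strand), CDC20 chr1:43358881-43358980 (plus strand), PLK1 chr16:23678789-23678888 (plus strand).
CCNB2: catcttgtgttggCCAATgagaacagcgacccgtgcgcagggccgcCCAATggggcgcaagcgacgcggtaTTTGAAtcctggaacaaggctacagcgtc
CDC20: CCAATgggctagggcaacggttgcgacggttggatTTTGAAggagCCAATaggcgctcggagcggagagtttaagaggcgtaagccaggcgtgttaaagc
PLK1: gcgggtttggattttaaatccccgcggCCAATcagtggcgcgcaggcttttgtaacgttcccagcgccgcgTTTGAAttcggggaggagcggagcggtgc
PCNA is the sliding clamp of the replication fork, CDC25A the phosphatase that releases CDK2, and E2F1 an activator of S-phase genes. CCNB2 encodes cyclin B2, CDC20 the activator of the anaphase-promoting complex and PLK1 a mitotic kinase.

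Most of the 40 genes had a peak at an end in every list, and the OCT1 and OCA-B lists reached nearly all of them. OCA-B was found at 38 of the 40 genes against 46.2% of all protein-coding genes, OCT1 at 37 against 41.9%, OCT2 at 34 against 40.9% and EP300 at 34 against 45.5%. MED1 was found at 30 against 33.7% and CREBBP at 28 against 31%. All 6 lists met at 25 of the 40 genes (12 replication and 13 mitosis genes), against 21.8% of all genes. No list reached 2 of them, ORC1 and CCNE1, against 44% of all genes. The 40 genes are thus read against a background in which many genes have no peak at all. Among the 9086 genes with EP300 at an end, OCA-B was present at 89.9%, OCT2 at 82.4%, OCT1 at 76.1%, MED1 at 71.2% and CREBBP at 65.8%. Of the 34 replication and mitosis genes with EP300, OCA-B was present at 34, OCT2 at 31, OCT1 at 34, MED1 at 28 and CREBBP at 26. Among these 5 lists the distance from the background was widest for OCT1.

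**Figure D1:**
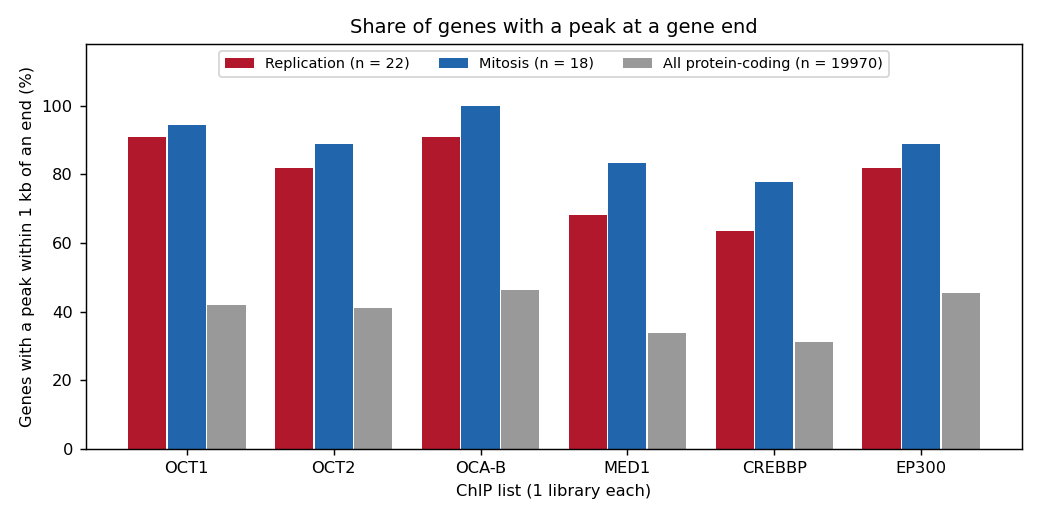
Share of genes with a peak within 1 kb of either gene end (vertical axis, percent) for each ChIP list (horizontal axis), for the 22 replication genes (red), the 18 mitosis genes (blue) and all 19970 protein-coding genes (grey). Both classes stand above the grey bar in every list, with OCA-B at all 18 mitosis genes.

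The B cell label was checked at marker genes. The B cell markers had a peak at an end in 6 of 7 for OCT1 and 7 of 7 for each other list, T cell markers in 1 to 3 of 7, myeloid markers in 0 to 1 of 7 and erythroid markers in 0 to 1 of 6, by list. Library depth after filtering ran from 12357450 tags for CREBBP up to 27885791 for EP300, and list length from 23571 peaks for OCT1 up to 82569 for EP300. File headers give a redundant tag rate of 0 in the CREBBP and MED1 libraries, where the other libraries had 0.08 to 0.2, and its part in the results was not tested. Fold values below are enrichment over input at the summit as the authors' peak caller gave them, and for each gene the highest at its ends. They describe peaks within a list and do not rank factors, since antibody, depth and list length differ.

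**Figure D2:**
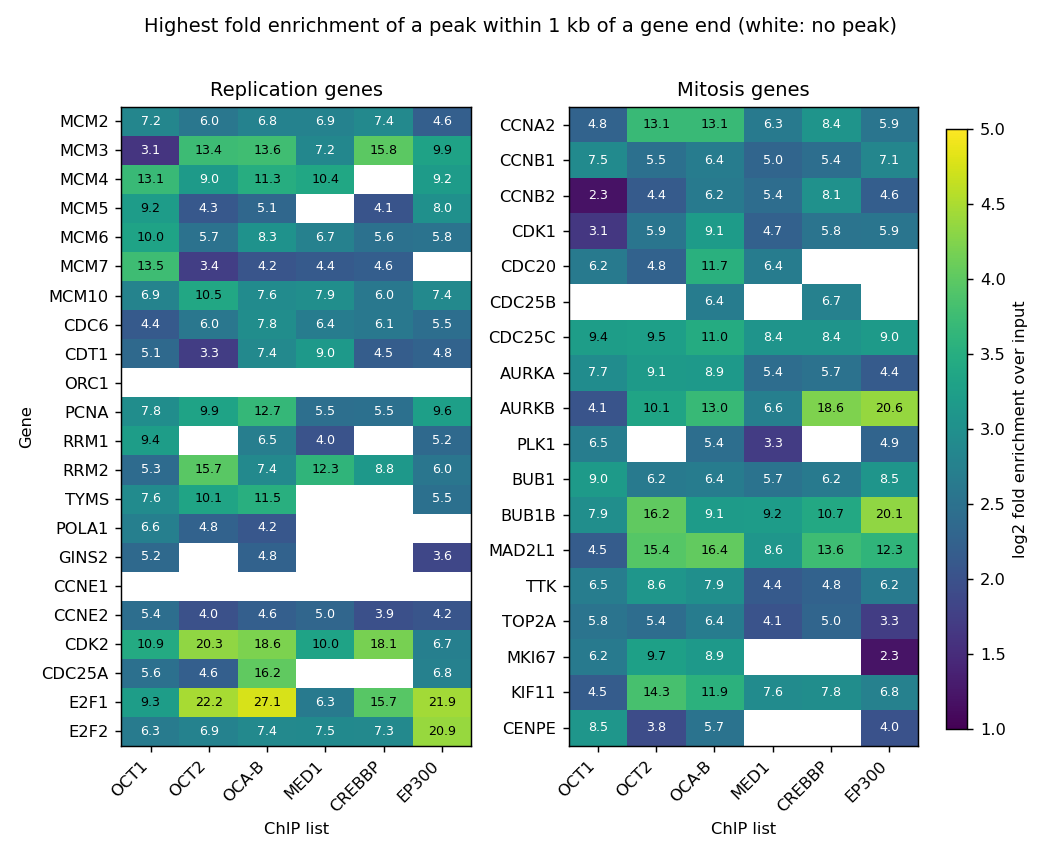
Highest fold enrichment over input of a peak at a gene end, printed in each cell and coloured on a log2 scale, for the 40 genes (rows) in the 6 lists (columns). White cells have no peak, as at ORC1 and CCNE1, and the brightest cell is OCA-B at E2F1 (27.1), followed by OCT2 at E2F1 (22.2).

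All 6 genes of the MCM2 to MCM7 helicase had OCA-B, OCT2 and OCT1 at an end, yet their profiles differed. The OCT1 fold was 7.15 at MCM2, 3.07 at MCM3, 13.1 at MCM4, 9.23 at MCM5, 10.0 at MCM6 and 13.5 at MCM7. The OCT2 fold was 5.98 at MCM2, 13.4 at MCM3, 9.02 at MCM4, 4.27 at MCM5, 5.70 at MCM6 and 3.36 at MCM7. MCM7 and MCM3 were thus at opposite ends: MCM7 had the highest OCT1 and the lowest OCT2 value of the 6, and MCM3 the reverse. At MCM7 the strongest OCT1 peak (chr7:100101177-100101737) covered the start, which the neighbouring gene AP4M1 shares, whereas the OCT2 peak (chr7:100092221-100092412) lay at the other end, beside COPS6. At MCM3 both lay at the start (OCT1 chr6:52284639-52285172, OCT2 chr6:52284707-52285762), where OCA-B reached 13.6 and CREBBP 15.8. MED1 was missing at MCM5, CREBBP at MCM4 and EP300 at MCM7. The OCT1 peak of MCM4 also lay at the end of PRKDC and that of MCM2 at the end of TPRA1, so these regions cannot be given to 1 gene. MCM10, which acts when the helicase is switched on, had 6.92 for OCT1 and 10.5 for OCT2.

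Origin licensing depends on ORC1, the largest subunit of the origin recognition complex, and on CDC6 and CDT1, which load the MCM ring. CDC6 had an OCT1 fold of 4.39 and an OCT2 fold of 6.02, and CDT1 5.15 and 3.30. ORC1 had no peak within 1 kb of its outer ends, but its listed start lies 5.08 kb inside the outer end. There, 128 bp upstream, an OCT1 peak had a fold of 5.98, and OCT2 (8.26), OCA-B (8.75), MED1 (8.66), CREBBP (8.25) and EP300 (7.12) had peaks as well. The same peaks lie at the end of PRPF38A. The absence of ORC1 from the counts therefore followed from the outer gene end used in the rule.

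The nucleotide supply genes showed OCT1 without exception and OCT2 in part. RRM1 and RRM2 encode the subunits of ribonucleotide reductase and TYMS thymidylate synthase. RRM1 had OCT1 at 9.35 (chr11:4094544-4094907), OCA-B at 6.53, EP300 at 5.16 and MED1 at 4.05, and neither OCT2 nor CREBBP. RRM2 had OCT1 at 5.25, with the summit 3 bp from the start. Its highest OCT2 value, 15.7, came from the other end of the gene (chr2:10211951-10212328), and that peak also counted among its distal ones. TYMS had OCT1 at 7.60, OCT2 at 10.1, OCA-B at 11.5 and EP300 at 5.54, without MED1 and CREBBP.

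At the fork genes MED1, CREBBP and EP300 were uneven. PCNA had all 6 lists, with OCT1 at 7.75, OCT2 at 9.94 and OCA-B at 12.7, and its OCT1 peak also lay at the end of CDS2. POLA1, the catalytic subunit of DNA polymerase alpha, had OCT1 at 6.64, OCT2 at 4.76 and OCA-B at 4.24, without MED1, CREBBP and EP300. GINS2, a subunit of the GINS complex of the active helicase, had OCT1 at 5.18, OCA-B at 4.79 and EP300 at 3.60 only. The OCA-B peak of GINS2 lay at the far end, beside GSE1, and the OCT1 and EP300 peaks lay on the start side.

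Genes of S-phase entry held the highest OCT2 and OCA-B folds of the replication class and also an empty gene. At E2F1 OCA-B reached 27.1, OCT2 22.2 and OCT1 9.32, with EP300 at 21.9, CREBBP at 15.7 and MED1 at 6.29. All 6 came from 1 region inside the gene (OCT2 peak chr20:33685375-33685791), with the OCT1 summit 892 bp downstream of the start. At the start itself OCT2, OCA-B and EP300 had further summits 393, 388 and 390 bp upstream, with folds of 5.32, 9.07 and 7.63. Its paralog E2F2 had OCT1 at 6.31, OCT2 at 6.85, OCA-B at 7.39 and EP300 at 20.9, with 5 OCT2 and 5 OCA-B peaks but 1 OCT1 peak at its ends. Only the edges of these EP300 and OCT2 peaks reached the 1 kb window, with summits 2.44 and 1.53 kb from the end. At the start of E2F2, EP300 had a fold of 5.75 and OCT2 of 5.06. CDK2, the kinase that cyclin E activates, had OCT2 at 20.3, OCA-B at 18.6, CREBBP at 18.1 and OCT1 at 10.9, all at its high-coordinate end, which is also the end of RAB5B (OCT1 peak chr12:55973598-55974280). The low-coordinate end of CDK2 had OCT2 at 15.4, OCA-B at 7.66, MED1 at 4.61 and EP300 at 4.53, without OCT1 and CREBBP. CDC25A had OCA-B at 16.2, OCT1 at 5.58 and OCT2 at 4.62, with no MED1 or CREBBP. Of the cyclin E genes, CCNE2 had all 6 lists, with folds of 3.93 (CREBBP) to 5.45 (OCT1), and its OCT1 peak also lay at the end of NDUFAF6. CCNE1 had none at its ends.

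In the mitosis class the B-type cyclins and CDK1 had low OCT1 values apart from CCNB1. OCT1 was 7.50 at CCNB1, 2.29 at CCNB2, 3.14 at CDK1 and 4.81 at CCNA2, and OCT2 was 5.54, 4.41, 5.90 and 13.1 in the same order. The value of CCNB2 was the lowest OCT1 fold of the 40 genes. The peak of CCNA2, which encodes cyclin A2, also lay at the end of BBS7. CDC20 had OCT1 at 6.21 and OCA-B at 11.7 at the start, without CREBBP and EP300. Its OCT2 peak (4.79) and its highest MED1 peak (6.43) lay at the far end, beside ELOVL1. The CDC25 phosphatases that release CDK1 differed at their outer ends. CDC25C had all 6 lists, with folds from 8.38 for MED1 upward, and OCT1 at 9.35 in a region shared with FAM53C (chr5:138337574-138338547). CDC25B had only OCA-B and CREBBP, at 6.41 and 6.73 at its far end, with a weaker CREBBP peak (5.43) on the start side. At an inner listed start CDC25B had OCT2 at 23.9 and OCT1 at 8.62, as described below.

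The mitotic kinases likewise differed between paralogs. AURKA had OCT1 at 7.67 and OCT2 at 9.10, with 7 OCT2 peaks against 1 OCT1 peak at its ends, and shares its region with CSTF1. AURKB had OCT1 at 4.11 and OCT2 at 10.1, and its CREBBP (18.6) and EP300 (20.6) folds were above those of AURKA (5.71 and 4.44). PLK1 had OCT1 at 6.49, OCA-B at 5.43, EP300 at 4.91 and MED1 at 3.29 and no OCT2.

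Among the spindle checkpoint genes, BUB1 and BUB1B encode related kinases, MAD2L1 the MAD2 inhibitor of the anaphase-promoting complex and TTK the MPS1 kinase. OCT1 was 9.03 at BUB1, 7.88 at BUB1B, 4.47 at MAD2L1 and 6.50 at TTK. OCT2 was 6.25 at BUB1, 16.2 at BUB1B, 15.4 at MAD2L1 and 8.62 at TTK. BUB1 thus had the highest OCT1 and the lowest OCT2 value of the 4. At BUB1B the OCT1 and OCT2 peaks overlapped at the start (chr15:40160830-40161249 and chr15:40160694-40161030). At MAD2L1 both highest peaks lay at the far end of the gene, and OCA-B reached 16.4 at the start.

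TOP2A (topoisomerase II alpha), MKI67 (the Ki-67 proliferation marker), KIF11 (the kinesin Eg5) and CENPE (a centromere kinesin) completed the class. OCT1 was 5.81 at TOP2A, 6.17 at MKI67, 4.48 at KIF11 and 8.55 at CENPE, and OCT2 was 5.41, 9.71, 14.3 and 3.83 in the same order. MKI67 and CENPE had neither MED1 nor CREBBP. EP300 was 4.03 at CENPE, and MKI67 had its lowest value of the 40 genes. TOP2A had all 6 lists. Its OCT1 pileup, the number of fragments over the summit, was 78, against 13 to 50 for the other mitosis genes with OCT1, although its fold was not high.

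Replication and mitosis genes did not separate by OCT1. OCT1 lay at 20 of 22 replication and 17 of 18 mitosis genes, OCT2 at 18 and 16, OCA-B at 20 and 18, and EP300 at 18 and 16. MED1 lay at 15 of 22 and 15 of 18, and CREBBP at 14 of 22 and 14 of 18. The 10 genes without MED1 were MCM5, ORC1, TYMS, POLA1, GINS2, CCNE1 and CDC25A in the replication class and CDC25B, MKI67 and CENPE in the mitosis class. Within 500 bp of the ends MED1 reached 9 of 22 replication and 14 of 18 mitosis genes, against 26.2% of all genes, and CREBBP 9 and 13, against 23.6%. The median of the highest OCT1 fold was 7.04 in replication and 6.21 in mitosis genes (6.64 in all genes with a peak), and that of OCT2 6.44 and 8.86 (7.26). The OCT2 median of mitosis genes was also the higher one in 6 of 8 other settings, from 5.34 and 8.27 within 500 bp to 7.94 and 9.10 at a −log10 q of at least 5. In the other settings it was not: with a window of 2 kb the OCT2 medians were 10.1 and 9.10, and with the lists at equal length 13.4 and 13.1. In the wider lists of other replication and other mitosis genes it ran the opposite way, 7.45 and 6.69.

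OCT1 and OCT2 were both present at 34 of the 40 genes, against 31.8% of all genes. OCT1 without OCT2 was found at 3 genes, RRM1, GINS2 and PLK1, against 10.1%, and OCT2 without OCT1 at 0, against 9.13%. Neither was found at 3, ORC1, CCNE1 and CDC25B, against 48.9%. The 2 factors nevertheless differed in the number and the place of their peaks. OCT1 had 47 peaks at the ends of the 40 genes and OCT2 83, and 9 genes had several OCT1 peaks against 23 with several OCT2 peaks. The mean number of OCT2 peaks at genes with any was 2.06 in replication and 2.88 in mitosis genes (1.72 in all genes), and that of OCT1 1.40 and 1.12 (1.25).

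**Figure D3:**
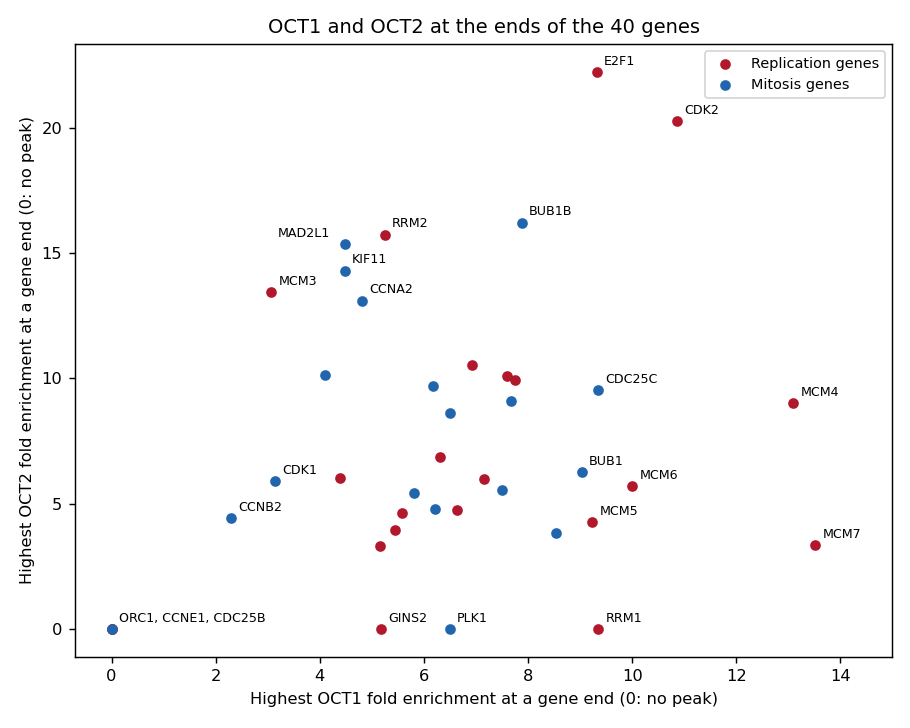
Highest OCT2 fold enrichment (vertical axis) against highest OCT1 fold enrichment (horizontal axis) at the ends of each of the 40 genes, with 0 for no peak. MCM7 and MCM4 lie furthest right, E2F1 and CDK2 highest, and RRM1, GINS2 and PLK1 on the axis without OCT2.

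The deposited OCT2 list holds 73829 peaks and the OCT1 list 23571. When each list was shortened to the length of the OCT1 list by −log10 q, OCT2 was found at 14 of the 40 genes (7 replication and 7 mitosis genes), against 19.1% of all genes, and OCA-B at 30, against 30.6%. OCT1 without OCT2 was then found at 23 genes, against 25.7%. The counts of OCT1 and OCT2 were thus close at the deposited lengths and far apart at equal length.

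Where both factors were present, at least 1 OCT1 peak at an end, not always the highest, overlapped an OCT2 peak at 25 of 34 genes (73.5%, against 72.3% of all such genes). An overlap of 1 bp was enough. The classes had 12 of 18 and 13 of 16. Summits lay within 250 bp at 21 of 34, with a median gap of 137 bp (168 bp over all genes). These shares were near the background. OCA-B overlapped an OCT1 peak at 32 of 37 genes (86.5%, against 81.8%). 

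The 6 lists differed in where the summits stood relative to the gene start. For the 34 genes with a listed start (the nearest where several are listed), the OCT1 summit nearest to it lay within 1 kb in 33 (97.1%, against 44.5% of all genes with a listed start). Its median position was -118 bp (-84 bp over all genes), where negative is upstream. It lay upstream in 29 of 33 (87.9%, against 75.5%). Within 150 bp of the start lay 23 of the 33 OCT1 summits (69.7%, against 65.5% over all genes), 7 of 27 OCT2 summits (25.9%, against 29.8%), 13 of 31 OCA-B summits (41.9%, against 37.3%), 2 of 23 MED1 summits (8.7%, against 19.8%), 3 of 22 CREBBP summits (13.6%, against 24.8%) and 7 of 29 EP300 summits (24.1%, against 29.2%). The shares of OCT1, OCT2, OCA-B and EP300 were near those over all genes. The median distance was 128 bp for OCT1, 163 bp for OCA-B, 252 bp for OCT2, 259 bp for EP300, 298 bp for CREBBP and 349 bp for MED1. Over all genes it was 110 bp for OCT1, 213 bp for OCA-B, 261 bp for OCT2, 263 bp for EP300, 300 bp for CREBBP and 333 bp for MED1. OCT1 thus stood close to the start, with MED1, CREBBP and EP300 further out, in the same order as over all genes.

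Gene by gene, OCT1 was nearer to the start than OCT2 in 22 of 27 genes (81.5%, against 75.4% of all genes), than MED1 in 21 of 23 (81.4% of all genes), than EP300 in 24 of 29 (75.9%) and than OCA-B in 18 of 31 (58.1%, against 70.3%). The classes were alike in this, with 11 of 13 replication and 11 of 14 mitosis genes for OCT2. PCNA shows the pattern: OCT1 lay 107 bp upstream, and OCT2, MED1 and EP300 lay 190, 190 and 160 bp downstream. Distances are to the nearest listed start of each summit, and with the outermost start for all lists OCT1 was nearer than OCT2 in 22 of 26 genes. E2F1 and MKI67 were among the exceptions.

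**Figure D4:**
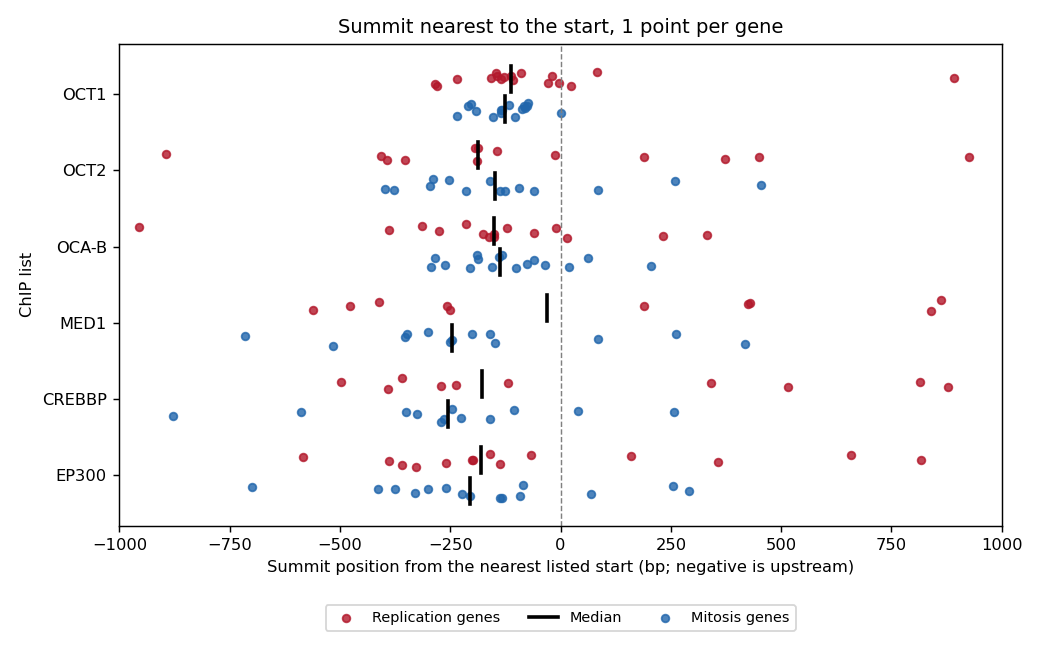
Position of the summit nearest to the listed start (horizontal axis, bp, negative is upstream), 1 point per gene, in each list (vertical axis), for replication genes (red) and mitosis genes (blue), with black bars for medians. OCT1 points gather close upstream of the start, with E2F1 at 892 bp as the exception, and MED1, CREBBP and EP300 points scatter on both sides.

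The promoter windows, 250 bases before to 50 after the outermost listed start, were searched on both strands for the octamer, CCAAT, CHR and E2F letters given above. No window of the 34 genes held the octamer ATGCAAAT, which 1.72% of all 15811 windows hold. With 1 free base it was found in 1 replication and 2 mitosis genes, against 13% of all windows. In CCNB2 and MKI67 these letters, ATTTGAAT, contain the CHR letters TTTGAA, and in MCM6 they, CTTTGCAT, share 1 base with an E2F match. CCAAT was found in 13 of 18 replication and 12 of 16 mitosis genes, against 36.4%. CHR letters were found in 2 of 18 replication and 10 of 16 mitosis genes, against 13.5%, and E2F letters in 13 of 18 and 1 of 16, against 4.45%. CCAAT was thus about as frequent in both classes, while CHR and E2F letters were unevenly spread, and OCT1 lay at both classes. CDK1 was the mitosis gene with E2F letters, and MCM6 and RRM1 were the replication genes with CHR letters. In the lists of other genes, E2F letters stood in 11 of 39 replication and 3 of 44 mitosis windows, and CHR letters in 1 and 34. CCAAT stood in 17 of 39 (43.6%) and 31 of 44 (70.5%), so its even spread did not extend to those lists. A match is a description of letters and not a bound site, and a window without one says only that these letters are not in it. Median GC content was 67.8% in replication, 63.2% in mitosis and 62.7% in all windows.

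The 34 genes have 46 listed windows, and 7 of the genes have several. Over all of these the octamer was found once, in the window of an inner start of CDC25B (position 3800048 of chromosome 20), and it is shown with 11 bases on either side because the OCT2 and OCA-B summits fall on it. It lies at chr20:3799938-3799967 on the plus strand, and capitals mark the octamer, read here on the opposite strand.
CDC25B: ccgctgaggtgATTTGCATacaggtggaag
The octamer spans positions 3799949 to 3799956. The OCT2 summit was at 3799953 with a fold of 23.9 and a pileup of 136, and the OCA-B summit at 3799955 with 22.1 and 115. The OCT1 summit was at 3799961 with 8.62 and 49, and the EP300 summit at 3799963 with 18.9 and 116. CREBBP had a peak with a fold of 4.13 and its summit further downstream, and MED1 had none there. CDC25B, which lacked OCT1 and OCT2 at its outer ends, thus had all 3 of OCT2, OCA-B and OCT1 at an inner listed start. Its OCT1 fold was higher, at 9.29, at other inner listed starts (positions 3795789 and 3796310). There OCA-B reached 3.85 and EP300 4.30, and OCT2 had no peak. With listed starts added to the gene ends, OCT1 was found at 39 of the 40 genes (44.3% of all genes under the same rule), OCA-B at 39 (48.8%), OCT2 at 36 (43.4%), EP300 at 36 (48.1%), MED1 at 31 (36%) and CREBBP at 29 (33.4%).

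Distal peaks, whose summits lie more than 1 kb from any protein-coding or lncRNA gene end and within 100 kb of the named gene, were fewer for OCT1 than for any other list. At least 1 distal peak was given to 15 of the 40 genes for OCT1, against 28.5% of all genes, to 28 for OCT2, against 59%, to 29 for OCA-B, against 49.4%, to 28 for EP300, against 56.4%, to 27 for MED1, against 38.1%, and to 21 for CREBBP, against 42.3%. These shares stood closer to the background than those at the gene ends. In number, OCT1 had 27 distal peaks, OCT2 117, OCA-B 96, MED1 82, CREBBP 86 and EP300 119. A peak whose edge reached an end while its summit lay beyond is in both counts, 0 times for OCT1, 10 for OCT2, 9 for OCA-B, 13 for MED1, 3 for CREBBP and 10 for EP300. Counting each peak once, 63.5% of the OCT1 peaks of the 40 genes were at ends, 50.6% of OCA-B, 47.3% of MED1, 43.7% of OCT2, 40.8% of EP300 and 39.4% of CREBBP. The same share was not counted over all genes, so these values do not set the 40 genes apart. Over all genes OCT1 also had the fewest distal peaks, with a mean of 0.579 per gene against 1.45 (MED1) to 2.84 (EP300) in the other lists. Nearness does not show which gene a distal region serves.

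More distal MED1, CREBBP and EP300 peaks were given to the 22 replication than to the 18 mitosis genes, while the wider gene lists ran the opposite way. The mean number per gene was 2.68 MED1 peaks in replication and 1.28 in mitosis genes (1.45 in all genes), 2.91 and 1.22 for CREBBP (1.52), 3.73 and 2.06 for EP300 (2.84), 3.05 and 2.78 for OCT2 (2.53), and 0.909 and 0.389 for OCT1 (0.579). Medians lay nearer together, at 1.5 and 1 for MED1, 1.5 and 0 for CREBBP, 2 and 1 for EP300 and 1.5 in both for OCT2, as a few genes such as CDT1 and RRM2 held many. In the lists of other replication and other mitosis genes the means were 1.37 and 1.78 for MED1, 1.15 and 1.74 for CREBBP and 2.26 and 2.70 for EP300. Of the distal OCT2 peaks, 62.7% in replication and 40% in mitosis genes overlapped MED1 (48.1% over all genes), and 80.6% and 52% overlapped EP300 (71.4%). Distal OCT1 peaks overlapped OCT2 in 22 of 27 cases (81.5%, against 79.9%). RRM2 had 9 distal OCT2 peaks, E2F2 8 and MCM3, MCM5 and POLA1 7 each. KIF11 had 12, MAD2L1 9 and MKI67 6. Their strength varied: the 12 of KIF11 did not pass a fold of 8.54.

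**Figure D5:**
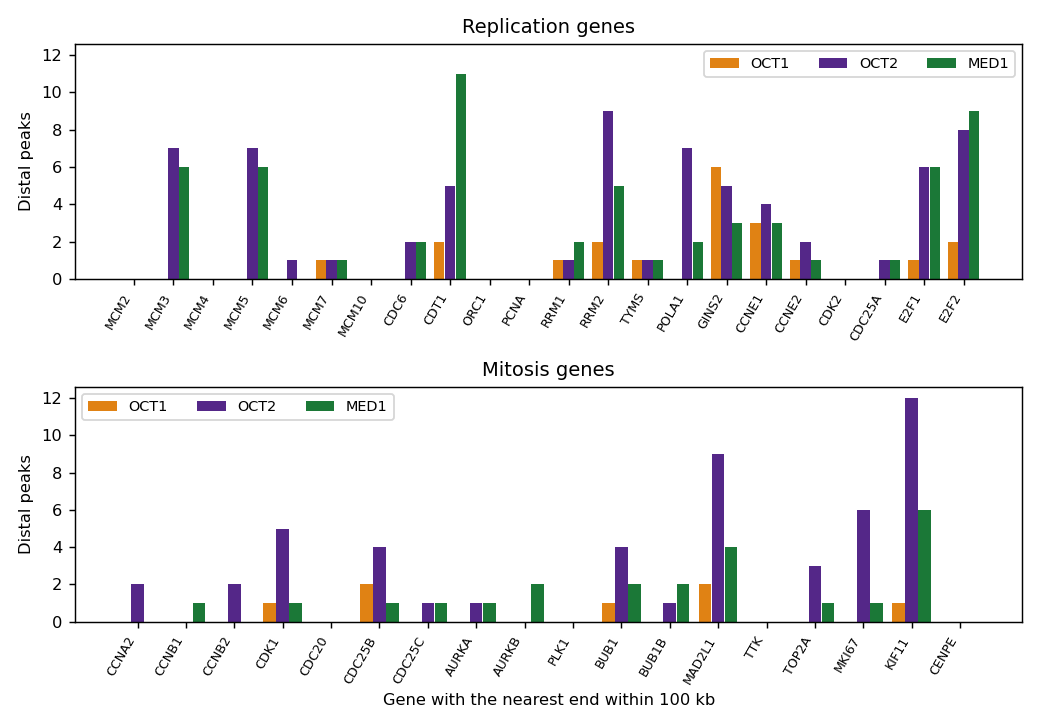
Number of distal OCT1 (orange), OCT2 (purple) and MED1 (green) peaks (vertical axis) given to each replication gene (upper panel) and mitosis gene (lower panel). KIF11 has the most OCT2 peaks (12), CDT1 the most MED1 peaks (11) and GINS2 the most OCT1 peaks (6).

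A fold of at least 20 was reached by 8 of the 117 distal OCT2 peaks (6.84%, against 8.27% over all genes), 5 in replication and 3 in mitosis genes. These 8 include the CDC25B peak at an inner listed start, which is distal only from the outer gene ends. The strongest lay inside CCNE1, 3.41 kb from its nearer end (chr19:29815081-29815683), with OCT2 at 61.8, OCA-B at 35.0, EP300 at 22.1, CREBBP at 14.8, MED1 at 13.1 and OCT1 at 8.48. CCNE1, empty at its ends, thus held the highest OCT2 value of all regions of the 40 genes. POLA1, whose ends had no MED1, CREBBP or EP300, had a region 83.9 kb inside the gene (chrX:24777213-24778234) with EP300 at 82.9, OCT2 at 38.4, CREBBP at 28.2 and MED1 at 16.0 and no OCT1. BUB1 had one 2.59 kb inside (chr2:110675026-110676252) with 32.2 for OCT2 and 6.59 for OCT1. MAD2L1 had one 64.2 kb away with 30.1 for OCT2, 36.8 for CREBBP and 33.3 for EP300.

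Distal regions with a high OCT1 fold were near GINS2 and TYMS. The region 68.7 kb from GINS2 (chr16:85607373-85607624) had OCT1 at 34.5, OCT2 at 26.8 and OCA-B at 15.3, with EP300 and without MED1. The one 2.88 kb outside TYMS (chr18:654444-655017) had OCT2 at 29.1, OCT1 at 18.5, OCA-B at 11.3 and MED1 at 3.93, with neither CREBBP nor EP300. In another distal region, 1.87 kb from CDT1, CREBBP reached 56.3 and MED1 30.4.

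The wider gene lists also had OCT1 and OCA-B at most ends, with fewer OCT2 among other replication genes. Of 46 other replication genes, OCT1 lay at 40, OCA-B at 40, EP300 at 38, OCT2 at 31, MED1 at 29 and CREBBP at 28, and 12 had OCT1 without OCT2. Of 54 other mitosis genes, OCA-B lay at 52, OCT1 at 50, OCT2 at 48, EP300 at 47, MED1 at 42 and CREBBP at 41, and 3 had OCT1 without OCT2. Of 19 E2F, RB and DREAM genes, the regulators of both classes, OCA-B lay at 17, EP300 at 17, OCT1 at 16, MED1 at 16, CREBBP at 16 and OCT2 at 15. The overlap of OCT1 with OCT2 peaks was 14 of 28 in the other replication and 35 of 47 in the other mitosis genes.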

How the data were processed

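Per the submitters' processing notes, peaks and alignments on build hg38 involved MACS2 2.1.1.20160309, SAMtools 1.3.1, Bowtie2 2.3.2.2 and CASAVA 1.8.2. Per the file headers, the authors called peaks of each library separately against the common input at a q threshold of 0.05. The deposited lists give positions, the fold enrichment (a linear ratio over input), the signal as summit pileup, and −log10 values of p and q. All were used as the authors' caller wrote them. Only chromosomes 1 to 22 and X were used. Gene ends were those of RefSeq on GRCh38.p14, given without strand, so strand and start came from the promoter table. No genome sequence was used here.

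A peak counted at a gene end where any part lay within 1 kb of it, and as distal where its summit lay over 1 kb from all protein-coding and lncRNA gene ends and within 100 kb of a protein-coding one. Counts of genes were made with Python 3.11.15, pandas 2.3.3 and numpy 2.4.6, and were tested on simulated data. Figures used matplotlib 3.10.9. Each factor had 1 library, so precision between cultures is unknown.

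The members and all gene lists (replication, mitosis, other replication, other mitosis, E2F, RB and DREAM genes and cell type markers) were chosen with earlier results of these data known. The rule named members lacking OCT1 or OCT2 at an end, the 3 highest OCT1 and OCT2 folds and the 3 highest distal OCT2 counts per class, members without MED1 or with few lists, and the paralog pairs and MCM genes. Other members were named by role after their values were seen. The summit positions from the start, listed starts as an alternative, the outermost start for all lists, the windows of all starts, the strong distal regions and the choice of printed stretches were added after seeing the data. Alternatives covered the window, the summit rule, a −log10 q of at least 5, equal list lengths, the start only, narrower classes and the distal distance.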

Additional observations from a re-analysis of the deposited data

How the results depend on the processing

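Of 288 values from alternatives to 55 results, 245 stayed within 1.5 times the reported value and 43 did not, 28 of these with all lists shortened to the OCT1 length, which leaves the OCT1 list as it is by construction. With the lists at equal length the counts at ends were 14 for OCT2 (7 replication, 7 mitosis), 16 for CREBBP (8, 8) and 11 for EP300 (6, 5). OCT1 and OCT2 met at 14 genes, and OCT1 lacked OCT2 at 23. An OCT1 peak overlapped OCT2 at 11 genes, and the OCT2 fold median of replication genes was 13.4. Distal peaks then numbered 33 for OCA-B (26, 7), 34 for OCT2 (24, 10), 36 for MED1 (25, 11), 39 for CREBBP (33, 6) and 32 for EP300 (25, 7). Within 500 bp, MED1 and CREBBP each reached 9 replication genes, OCT1 lacked OCT2 at 6 genes and OCT2 lacked OCT1 at 3. Within 2 kb OCT2 lacked OCT1 at 1, and the OCT2 fold median of replication genes was 10.1. At −log10 q of at least 5, OCT1 lacked OCT2 at 6, OCT2 lacked OCT1 at 3, and distal peaks numbered 44 for MED1 (30, 14), 19 for OCA-B in mitosis genes and 10 for CREBBP in mitosis genes. With the start only, OCT1 lacked OCT2 at 5 of 34. Over all listed windows 1 of 16 mitosis genes held the octamer. Shorter lists hold fewer peaks by construction, and the cause of the other changes was not tested. No paired analysis was possible because each factor had 1 library. Peaks under the authors' threshold are not in the lists, so a gene without a peak had none detectable at this depth.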
